A study of Drosophila melanogaster with 23 samples.

Results

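CG4757 is a gene on chromosome arm 3R of Drosophila melanogaster (Entrez 41330) that is predicted to encode a carboxylesterase. It was described here across 8 fly strains that were hybridised against each other on 23 spotted cDNA arrays. A single feature of the array, in print block 13 at row 13 and column 3, carried the symbol CG4757 in the platform annotation, out of 6101 features in the table and 4841 that entered the fit. The gene was chosen by its measured values, namely a large range among strains with a small error, so its strain levels and its range are given as a description with no test.

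Carboxylesterases of the cholinesterase-like family hydrolyse ester bonds, usually through a catalytic triad of serine, histidine and an acidic residue. Relatives in the fly serve very different tasks: acetylcholinesterase (Ace) ends signalling at cholinergic synapses, juvenile hormone esterase (Jhe) degrades a developmental hormone, Esterase 6 (Est-6) is carried in the male reproductive tract, and neurotactin (Nrt) has lost catalysis and acts as an adhesion protein. Other members take part in the breakdown of dietary and foreign esters, including insecticides. The substrate of CG4757 is not given in the sources used here.

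All samples were whole adult males, 3 to 4 days of age, reared at 25 °C on standard food and kept away from females. No treatment was applied, and the groups differed by strain only. The strains were St Louis, Hikone R, Canton S and Oregon R, and 4 strains named for Zimbabwe: Zimbabwe30, Zimbabwe29, Zimbabwe2 and Zimbabwe53. RNA from batches of 8 to 12 flies was pooled into 1 sample per strain, so repeated hybridisations of a strain are technical. No error below measures the spread between flies of a strain. Errors of strain levels and their differences come from the scatter of pair means around the fit, except where single arrays are named. Repeated arrays of a pair were averaged first, and the gap between them does not enter these errors. Errors given for groups of strains describe the spread among strains. With RNA of whole flies, fewer cells of a type and less RNA per cell cannot be told apart. The log ratios hold no absolute level of any gene, so tissue markers could not be used to check the labelled source.

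Of the 23 arrays, 21 set different strains against each other and 2 set a strain against itself. The 21 arrays covered 13 pairs of strains, 8 of them on 2 arrays with the dye channels exchanged and 5 on 1 array. An array gave values for 3272 to 4987 features. CG4757 had a value on 20 of the 21 arrays of different strains, all but the second array of Oregon R and Zimbabwe53, and on both self arrays. Values are log2 ratios, computed from deposited log ratios read as base 10 and centred on the median of each array, with the mean dye offset of the feature removed. Values of the self arrays were centred only, and keep the dye offset. The deposited data do not state which channel is the numerator, so the direction of expression is unknown. Every difference was turned so that St Louis lies on the positive side, and no strain is called higher or lower in expression: "towards St Louis" and "towards Zimbabwe53" name the 2 ends of an axis.

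The widest direct contrast was between St Louis and Zimbabwe53, whose 2 arrays gave 3.57 and 3.60 towards St Louis, or 12.0-fold on average. The exchanged arrays of this pair differed by only 0.03. Canton S against Zimbabwe53 gave 2.06 and 2.77, and the single array of Hikone R against Zimbabwe29 gave 2.22. Each of these contrasts lay well outside the ratio of the same feature on the self arrays, which had a size of 0.18 for Canton S and 0.44 for Zimbabwe53. The Canton S value was near the SD of 0.17 over all features of that array, and 20.6% of its features were at least as far from 0. The Zimbabwe53 value was unusual for its array, where the SD was 0.14 and only 38 of 4216 features (0.901%) were at least as far from 0.

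Strains from Zimbabwe also differed among themselves. Zimbabwe30 lay on the St Louis side of Zimbabwe53 by 1.47 on one array and 2.51 on the other, a gap of 1.04 between the repeats. The titles of these repeats begin with different letters, C and E, which are described below. Zimbabwe2 against Zimbabwe53 gave 0.66 on its only array. The spread within Zimbabwe strains therefore reached 3.98-fold in a direct comparison.

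Canton S was also set against Zimbabwe2, with 1.99 on 1 array, and against Zimbabwe29, with 1.38 and 2.35. Oregon R gave 1.61 against Zimbabwe53 on the only array with a value and 1.27 against Zimbabwe2. St Louis against Zimbabwe30 gave 1.38. In each of these pairs the first strain named lay towards St Louis, by 2.41-fold to 3.97-fold.

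The remaining contrasts were small. Canton S against Zimbabwe30 gave 1.02 and 0.38, Canton S against Oregon R gave 0.76 and 0.54, and Hikone R against Canton S gave 0.09 and 0.20. The values of Hikone R against Canton S were below the 0.44 of the Zimbabwe53 self array, and lay on either side of the 0.18 of the Canton S self array. The same held for their values before removal of the dye offset, 0.01 and 0.28.

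**Figure D1:**
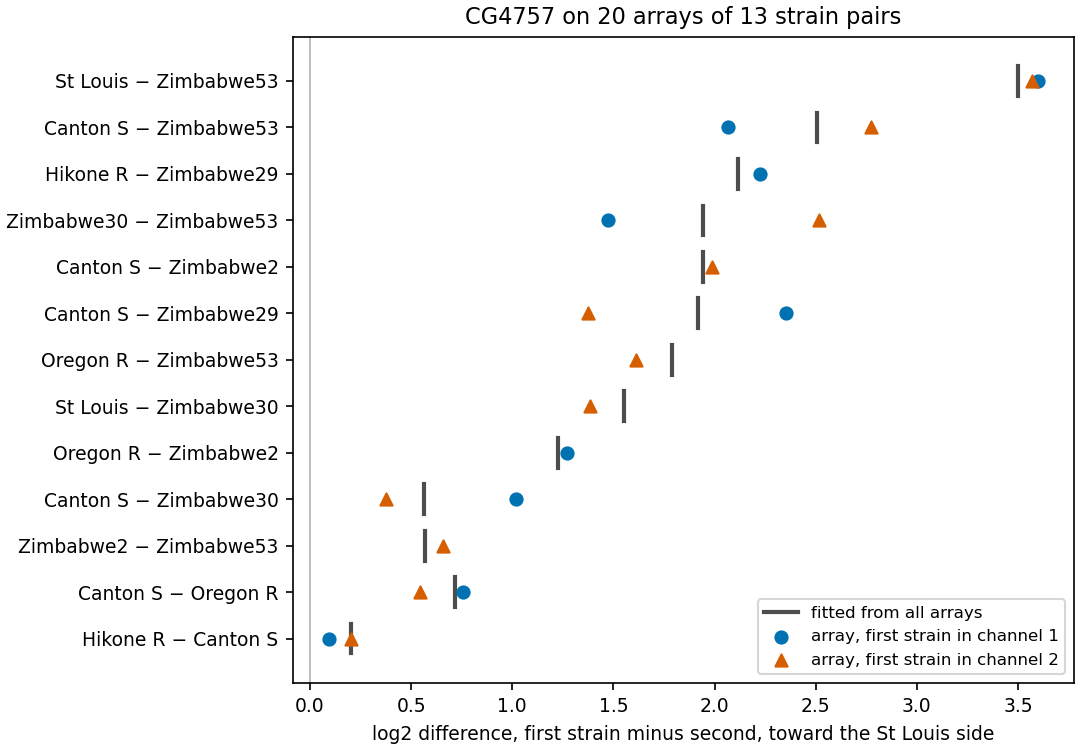
Log2 difference in CG4757 (x axis, first strain minus second, towards the St Louis side) on each array by pair of strains (y axis), with circles and triangles for the 2 channel orders and bars for the value fitted from all arrays. St Louis against Zimbabwe53 stands at 3.57 and 3.60, and Hikone R against Canton S at 0.09 and 0.20.

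Least squares over the 13 pairs, weighted by the number of arrays, placed the 8 strains on a single scale relative to their mean. St Louis stood at 1.80 ± 0.10, Hikone R at 1.01 ± 0.10 and Canton S at 0.81 ± 0.05 (SE, moderated by limma across all features). Zimbabwe30 at 0.24 ± 0.07 and Oregon R at 0.09 ± 0.08 lay close to the mean of the strains. Zimbabwe29 at -1.11 ± 0.10, Zimbabwe2 at -1.14 ± 0.09 and Zimbabwe53 at -1.70 ± 0.06 formed the opposite end. The range was 3.50 ± 0.11, or 11.3-fold between St Louis and Zimbabwe53.

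Neighbours in this order were not all separable. Hikone R and Canton S differed by 0.20 ± 0.11, Zimbabwe30 and Oregon R by 0.15 ± 0.12, and Zimbabwe29 and Zimbabwe2 by 0.03 ± 0.16, each within 2 SE. The largest step, 1.20 ± 0.15 or 2.30-fold, separated Oregon R from Zimbabwe29. St Louis stood apart from Hikone R by 0.79 ± 0.17, Canton S from Zimbabwe30 by 0.56 ± 0.10, and Zimbabwe2 from Zimbabwe53 by 0.57 ± 0.11. Of all 28 pairs of strains, 17 were beyond 2-fold and 7 were beyond 4-fold. These counts and the SE describe the values the gene was chosen on and test nothing. The plot of strain levels thus shows 3 couples of strains within 2 SE of each other, with St Louis and Zimbabwe53 beyond them at the ends.

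**Figure D2:**
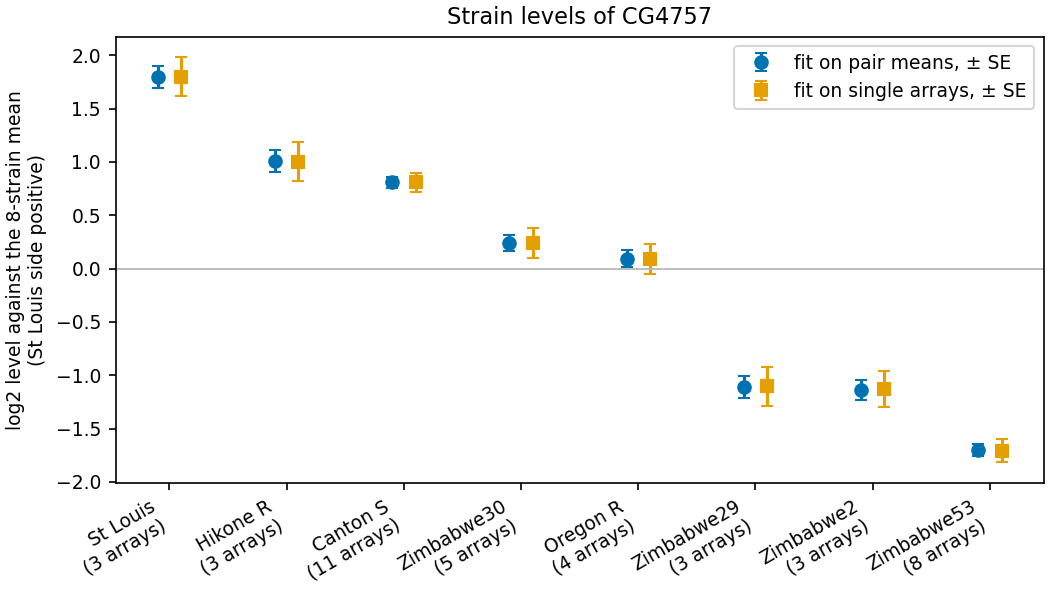
Fitted log2 level of CG4757 per strain (y axis, relative to the mean of the 8 strains, St Louis side positive) with SE bars, from pair means (circles) and from single arrays (squares). Levels run from 1.80 in St Louis to -1.70 in Zimbabwe53, with the largest step, 1.20, between Oregon R and Zimbabwe29.

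The pairs closed well on each other. The direct value of a pair differed from the value implied by the other pairs by 0.08 to 0.32, with a median of 0.21, and the residual SD of the pair means was 0.17, close to the median of 0.18 over all features. The 2 arrays of a pair repeated each other less well. Their SD was 0.46, against a median of 0.17 over all features, and 98.4% of features had a smaller one. Only 1.05% of features had a larger ratio of the SD between arrays to the residual SD of pair means, which was 2.73 for CG4757 with a median of 0.946 over all features.

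The dye offset of a pair ran from -0.60 for Zimbabwe30 and Zimbabwe53 to 0.41 for Canton S and Zimbabwe29, with a mean of -0.08 over the 7 pairs with both values. Of these 7 pairs, 4 had a gap of over 0.5 between their arrays and 3 had a gap under 0.25. The arrays of Zimbabwe30 and Zimbabwe53 also differed in the first letter of their titles, C and E. In that pair the channel order and the title letter cannot be told apart. Spot intensities were not used here, and the cause of the gaps was not tested. When the single arrays were fitted without averaging, the levels barely moved and the range was 3.50 ± 0.20, an SE 1.79 times as large.

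The array titles begin with C or E, and the labels do not say what the letters stand for. Within the 6 arrays of the C titles, Canton S stood 2.38, Oregon R 1.69 and Zimbabwe30 1.47 from Zimbabwe53. Within the 14 arrays of the E titles, the same strains stood 2.93, 2.07 and 2.30 from Zimbabwe53. All 3 strains thus lay on the St Louis side of Zimbabwe53 in both sets, but Oregon R and Zimbabwe30 changed places. Zimbabwe30 had only 1 array with a C title. Oregon R had a value on only 1 array with an E title, against Zimbabwe2. No error is given within the sets, so the change of places is a description. The other 4 strains were on E titles only, where St Louis stood 3.62, Hikone R 3.13, Zimbabwe29 1.01 and Zimbabwe2 0.80 from Zimbabwe53.

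Set among all features, the range of CG4757 was exceeded by 40 of 4841 features (0.826%). Several of the 40 are unnamed features that share a row and column across print blocks and have similarly wide ranges. Whether they are repeated prints of the same sequence was not tested. The 40 and the percentage therefore count spots and cannot be read as a number of separate genes. Among the 1409 named genes, CG5953 at 35.1-fold and Cpr72Ec, which encodes a cuticular protein, at 15.9-fold had a larger range. The next named gene below CG4757 was vanin-like at 5.49-fold. The median range over all features was 0.47 on the log2 scale, and 44.9% of features had a smaller residual SD than CG4757. These values are the ones the gene was selected on.

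**Figure D3:**
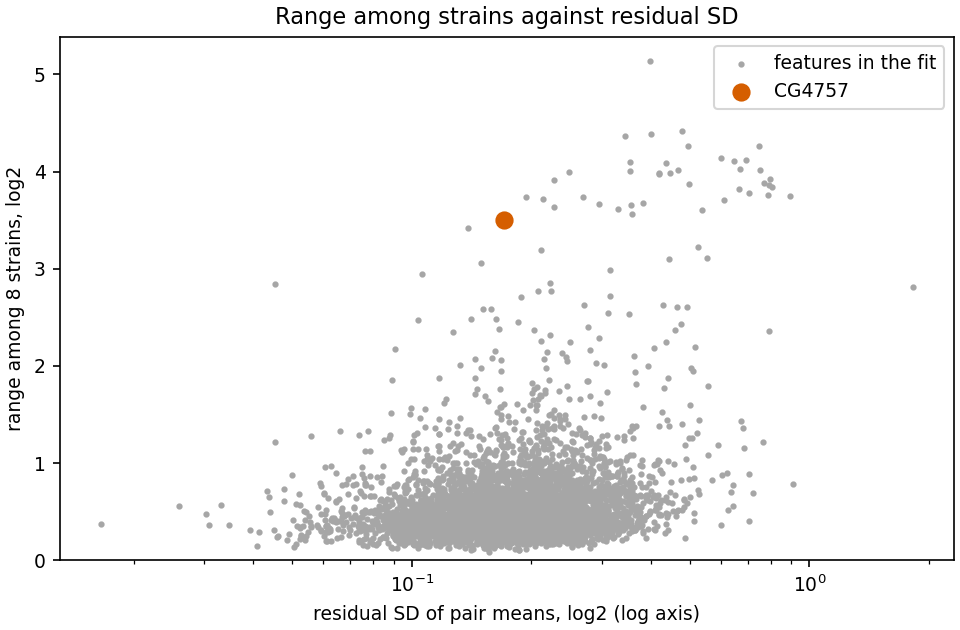
Range among the 8 strains (y axis, log2) against the residual SD of pair means (x axis, log2 units on a log axis) for the features of the fit, with CG4757 marked. CG4757 has a range of 3.50 at a residual SD of 0.17, below 40 features with a larger range. Several of these 40 share a row and column across print blocks, so they may not be separate genes.

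The size of a contrast in CG4757 followed the overall distance between strains only loosely. Over the 28 pairs of strains, Spearman's rho between the size in CG4757 and the root mean square difference over all features was 0.31 and Pearson's r was 0.38; the pairs share strains, and these are descriptions. St Louis and Zimbabwe53 ranked second of 28 in overall distance and lay farthest apart in CG4757. Zimbabwe30 and Oregon R, by contrast, ranked seventh in overall distance but differed by 0.15 ± 0.12 in CG4757.

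Zimbabwe29, Zimbabwe2 and Zimbabwe53 occupied one end of the scale, while Zimbabwe30 lay near the middle. The Zimbabwe strains averaged -0.93 ± 0.83 and the other strains 0.93 ± 0.70 (SD, n = 4 strains each), a difference of -1.85 ± 0.44, or 3.61-fold. The error of the difference is an SE moderated by limma across all features, so it does not follow from these SDs alone. The difference is a description, since it rests on the levels the gene was chosen for. The groups overlapped through Zimbabwe30 at 0.24 and Oregon R at 0.09, and without Zimbabwe30 the Zimbabwe mean was -1.32.

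The other members of the esterase family were almost all out of reach of the array annotation. Of 31 family genes listed, 30 matched the gene table and 1, Nrt, had a measured named feature. Nrt had a range of 0.40 and did not pass the F test among strains (limma's moderated F, adjusted p = 0.0712), which 2361 of 4841 features (48.8%) and 602 of 1409 named genes (42.7%) passed. Its cosine with CG4757 was -0.17. The cosine, weighted by arrays, is used here as a measure of likeness. It is 1 for genes whose 13 pair values are proportional, 0 where they share no direction and -1 for mirror images. The pairs share strains, and cosines far from 0 were common: the 5th and 95th percentiles over the other features were -0.68 and 0.72.

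The chromosomal surroundings of CG4757 are rich in UDP-glycosyltransferase genes (Ugt), whose products attach sugars to small lipophilic compounds and so make them easier to excrete. In the Release 6 gene table, used for gene order only, 10 of the 20 nearest genes are Ugt genes, 4 of the 10 genes before CG4757 and 6 of the 10 after it. The 3 genes directly before it and the 6 directly after it are of this family. Among the 20, a measured named feature existed for Ugt35A1 alone, the gene 4 places after CG4757.

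Ugt35A1 varied among strains by 1.60, or 3.04-fold, and passed the F test (adjusted p = 3.49e-07), but its profile was unlike that of CG4757, with a cosine of -0.60 over the 13 pairs. Its levels, on an axis turned as for CG4757, were 0.52 in Zimbabwe30, 0.53 in Zimbabwe29, 0.41 in Zimbabwe2 and 0.31 in Zimbabwe53, with SE between 0.06 and 0.11 over the 8 strains. Those of the other strains were 0.02 in St Louis, -0.29 in Hikone R, -0.43 in Canton S and -1.07 in Oregon R. The 4 Zimbabwe strains averaged 0.44 ± 0.10 and the other 4 averaged -0.44 ± 0.46 (SD, n = 4 strains each). The difference of 0.88 did not pass limma's comparison of origins on the strain levels (adjusted p = 0.100). In that comparison 12 of 4841 features (0.248%) passed and 540 had an unadjusted p under 0.05. St Louis and Zimbabwe53, the ends of the CG4757 scale, were close to each other in Ugt35A1, and Oregon R, near the middle in CG4757, lay at the far end. The features of the genes are in different print blocks, 13 for CG4757 and 3 for Ugt35A1.

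Enzymes of foreign-compound metabolism were then examined as a group, taking every measured gene whose symbol begins with Cyp, Gst or Ugt. Of the 10 genes so named, 7 passed the F test, against 48.8% of all features, and their median range was 0.72, against 0.47 over all features. The name rule also caught Cyp1, which encodes a cyclophilin and not a cytochrome P450. Without it, 7 of 9 passed and the median range was 0.86. No gene of the list had a range as large as that of CG4757.

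The cytochrome P450 genes, whose products oxidise hormones and toxins, were split. Cyp12d1-p had the widest range of the list at 1.87 (adjusted p = 2.03e-09), with a cosine of 0.54 to CG4757; its near-identical copy Cyp12d1-d could hybridise to the same spot, so the value may be that of both genes. Cyp4ac1 had a range of 1.13 (adjusted p = 1.98e-05) and a cosine of 0.81, with Zimbabwe53 at the same end as in CG4757. Other strains were placed differently, with St Louis at 0.05 and Zimbabwe2 at 0.20 in Cyp4ac1. The correlation of its levels with those of CG4757 over the 8 strains was 0.63. Cyp6u1 (adjusted p = 0.0582) and Cyp4g15 (adjusted p = 0.299) did not pass. Among glutathione S-transferases, which conjugate reactive compounds to glutathione, GstE12, GstE13 and GstZ2 all passed, with ranges of 1.41, 0.86 and 0.55. GstE12 and GstE13 had cosines of 0.19 and 0.41, and GstZ2 one of 0.90. Ugt50B3 passed with a range of 0.46 and a cosine of 0.28. Over the 10 genes, Cyp1 (cosine 0.31) among them, 7 had a positive cosine. The same held for 2276 of 4841 features and 658 of 1409 named genes. The median cosine of the 10 genes was 0.30, against -0.05 over all features.

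The 5 named genes most like CG4757 over the 13 pairs were Nadsyn (cosine 0.93), CG7888 (0.93), CG40160 (0.92), bmm (0.91) and GstZ2 (0.90), with 12 pairs measured for CG40160. Nadsyn encodes NAD synthetase, bmm encodes the triglyceride lipase brummer, and GstZ2 is the transferase named above. They lie on the X, 3L, 3L, 3L and 3R arms, in that order. The likeness was one of shape and not of size, since their ranges were 1.45-fold to 2.06-fold, against 11.3-fold in CG4757. In bmm, St Louis stood at 0.51 ± 0.11 and Zimbabwe53 at -0.54 ± 0.06, with the other 6 strains between -0.37 and 0.18. In CG7888, St Louis stood at 0.45 ± 0.09 and Zimbabwe53 at -0.58 ± 0.05.

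The most opposite named genes were CG7848 (cosine -0.88), Ih, which encodes a hyperpolarisation-activated cation channel (-0.88), and Sec13, a component of the COPII coat and the nuclear pore (-0.85, over 12 pairs). CG7848 had a range of 1.34, with Hikone R at -0.63 ± 0.09 and Zimbabwe53 at 0.71 ± 0.06, so that Zimbabwe53 was again at an end of the scale, on the other side. Ih and Sec13 spanned only 0.41 and 0.31, and Sec13 did not pass the F test among strains (adjusted p = 0.0706). Over 29 alternatives of the processing, the cosine of Sec13 ran from -0.92 to -0.65 and that of Ih from -0.90 to -0.76.

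**Figure D4:**
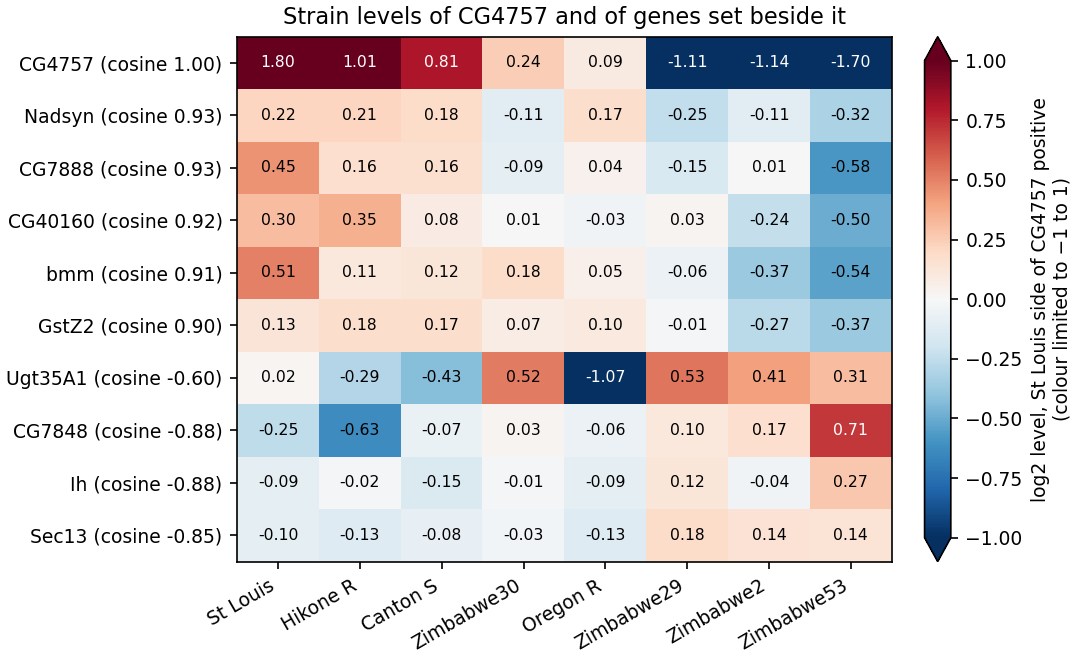
Fitted log2 levels (colour and printed value, St Louis side of CG4757 positive, colour limited to -1 to 1) of CG4757 and of genes set beside it (rows, with their cosines) in the 8 strains (columns, in the order of CG4757). The 5 most alike genes have their lowest value in Zimbabwe53, with far smaller ranges than 3.50, and CG7848 stands there at 0.71.

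Over the 4840 other features, 14 had a cosine over 0.9 and 2 had one under -0.9, and the 5th and 95th percentiles were -0.68 and 0.72. Of the 14, 4 were named genes and 7 had a range over 1 on the log2 scale, the largest being 1.78. Spots printed beside CG4757 did not share its profile to that degree: the 8 adjacent spots, all measured, had cosines between -0.26 and 0.72 and ranges between 0.27 and 2.71. The median cosine over the 293 measured features of the same print block was 0.19, against -0.05 over all features.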

How the data were processed

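Per the labels, poly-A RNA of 8 strain pools was labelled with cyanine 3 or cyanine 5 and hybridised to spotted cDNA arrays. The authors deposited 1 log ratio per feature and array, read here as log10. Their base, numerator, scanner, spot filter and normalization were not given in the sources used here. Base 10 is likely: as log2, the value farthest above 0, 1.56, would be a mere 2.95-fold. Exchanged arrays were anticorrelated in all 8 pairs (r from -0.809 to -0.285). Values were multiplied by 3.32 (log2 of 10) and median-centred. A dye offset per feature, the mean over complete exchanged pairs, was subtracted on the arrays of different strains. Pair means were fitted by weighted least squares in R 4.3.3 and moderated with limma 3.58.1. Features entered with at least 10 of 13 pairs, at least 3 complete exchanged pairs and all strains estimable. Benjamini-Hochberg adjusted p-values under 0.05 passed. The gene, the lists and the tests were chosen with earlier results of these data known, and the planned test of origin in CG4757 is left out because the gene was chosen on those levels. Named genes were CG4757, measured esterase, xenobiotic and neighbouring genes, and the 5 most and 3 least alike by cosine; CG5953, Cpr72Ec and vanin-like were named after their values were seen. Features with 1 gene symbol (1943) were named through the platform annotation, 67 with several and 4091 without were not. The fit was tested on simulated data. Each simulated array had noise of the size of the residual SD of pair means, 0.17 for CG4757. The larger SD of 0.46 between paired arrays of CG4757 was not simulated, so the simulation does not cover it.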

Additional observations from a re-analysis of the deposited data

How the results depend on the processing

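The range of CG4757 lay between 3.29, with arrays scaled, and 3.72, with the E titles alone, in 31 of 32 alternatives; leaving out each array in turn gave 3.44 to 3.59. The values with arrays scaled and with E titles are farther from 3.50 than its SE of 0.11, and also than its SE of 0.20 with single arrays. Reading the deposited logs as base 2 gave a range of 1.05, or 2.08-fold, so every fold above rests on base 10. In all 32 settings with a level for every strain, the reported one included, St Louis was first, Zimbabwe53 last, and the 3 strains at each end were the same. Zimbabwe30 stood above Oregon R on the St Louis axis in 31 and Zimbabwe29 above Zimbabwe2 in 27. The exception for Zimbabwe30 was leaving out the second array of Zimbabwe30 and Zimbabwe53. Oregon R, at 0.09, stood at -0.11 with the E titles alone. The difference between origins kept its sign in all 32 alternatives. Features past the F test numbered 1134 with only complete features, against 2361, and xenobiotic genes 3, against 7; fewer features were tested there, and CG4757, which lacks 1 array, has no level. Features past the comparison of origins ranged between 2 and 17, with 12 reported; 2 passed with arrays scaled or print blocks centred, and 2, 3 or 6 without one of 8 single arrays. Nrt passed, making the esterase count 1, with arrays scaled, print blocks centred, single arrays fitted with or without the title stem as a block, and on leaving out single arrays (0 to 1); the xenobiotic count ranged from 6 to 9 and the F test count from 1781 to 2574 on leaving out arrays. The cause of these changes was not tested. No paired analysis was possible because the titles carry no replicate number and the numbers used only name the arrays of a pair; titles do share stems, and single arrays with the stem as a random block gave a range of 3.48 and 2472 features past the F test. The number of arrays limits the precision, and signal over background is unknown.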
